A study of Homo sapiens with 18 samples.

Results

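The N108 mutant of IκBα was compared with the M3 mutant in untreated HCT116 cells. Members were all genes that passed a filter on low counts, which left 19038 of the 61552 genes in the count table, and the values came from 6 of the 18 RNA sequencing libraries. HCT116 is an established human colorectal cancer cell line. The labels describe both groups as knock-ins at IκBα. N108 carries a mutation at residue N108, whose replacement residue the labels do not give, and M3 carries alanine in place of H84, E85 and E86. Each group had 3 untreated replicates, and 3 libraries of a WT IκBα knock-in gave reference levels. Libraries of the same lines after human TNFα at 0.1 µg/mL for 40 min showed whether a difference recurred and whether it changed with TNF, and all 18 libraries entered the fit that estimates the spread. The labels name genotypes and give no clones, so that a mutation and the clone or clones that carry it cannot be told apart. Nothing in them says that replicates came from separate cultures, so a p-value weighs a difference only against the scatter of these libraries, part of which may be technical.

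IκBα, the product of NFKBIA, masks NF-κB dimers outside the nucleus, and its destruction after TNF or similar signals sets them free. NFKBIA is itself switched on by NF-κB, which closes a negative feedback loop. IκBα has also been described in the nucleus, bound to chromatin, and the series concerns a role of IκBα outside NF-κB in intestinal stemness. In the intestine, stem cells at the crypt base depend on Wnt signals, and their progeny pass through dividing and then absorptive or secretory states.

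Total counts of the 6 libraries ran from 56993019 to 76296511. In a principal component analysis of these libraries the first component held 60.47% of the variance and separated N108, at -32.7 to -30.7, from M3, at 30.19 to 32.71. On the second component replicate 3 lay under the other libraries of its line in both lines, at -24.57 against 11.85 and 13.58 in M3 and at -12.86 against 3.958 and 8.041 in N108. Deviations from the group mean followed transcript GC content, with Spearman correlations across genes of -0.34, -0.31 and 0.46 in M3 replicates 1 to 3 and 0.13, -0.39 and 0.25 in N108. Of the colon epithelial markers 9 of 10 were measured, with summed levels of 5182 to 5451 CPM in N108, where CPM is a read count scaled to a common library total, and 4410 to 4729 CPM in M3. Markers of leukocytes summed to at most 2.00 CPM in any library, and PTPRC, CD3E and CD14 did not pass the filter. Of the fibroblast list COL1A1, COL3A1 and PDGFRB were measured and summed to 29.02 to 31.8 CPM in N108 and 31.1 to 36.8 CPM in M3, most of it COL1A1, while COL1A2 and DCN did not pass. Of the endothelial list EGFL7, VWF and KDR summed to 46.7 to 49.1 CPM in N108 and 52.8 to 57.7 CPM in M3, most of it EGFL7, while PECAM1 and CDH5 did not pass. PDGFRB and VWF were higher in N108, 2.37-fold and 2.05-fold, EGFL7 was lower, at a log2 fold change of -0.23 ± 0.07, a call lost without N108 replicate 1 or M3 replicate 3, and the part of other cells in the results was not tested.

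The gene that carries the mutations was lower in N108. NFKBIA was at 30.1, 28.5 and 32.1 CPM in the N108 libraries and at 79.0, 78.1 and 76.7 CPM in M3. The groups did not overlap, and the WT libraries, at 90.8, 87.4 and 96.5 CPM, lay above both. The difference was 2.58-fold, a log2 fold change of N108 over M3 of -1.37 ± 0.05 (SE), with an adjusted p of 1.9e-17 in edgeR's quasi-likelihood test with Benjamini-Hochberg adjustment, which is the test behind all adjusted p-values given here. NFKBIA lies at chr14:35401511-35404749 on the minus strand of GRCh38 (GENCODE 29). The 250 bases before its RefSeq start, chr14:35404750-35404999 of GRCh38.p14 on the minus strand, are shown because they hold the sites through which NF-κB is known to act on this gene.
NFKBIA: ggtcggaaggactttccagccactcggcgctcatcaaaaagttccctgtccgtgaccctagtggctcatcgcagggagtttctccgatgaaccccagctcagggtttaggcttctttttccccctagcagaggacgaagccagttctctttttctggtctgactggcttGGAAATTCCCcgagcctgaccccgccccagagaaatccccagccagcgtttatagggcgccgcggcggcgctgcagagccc
Capitals mark the only match, on either strand, to the κB consensus, which begins at position -81. Such a match occurred in 9.573% of all 27305 promoters in the RefSeq table and in 15 of the 32 early NF-κB target genes with an entry.

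Transcripts of the NF-κB subunits differed little. A gene was called where its adjusted p was under 0.05, which held for 5994 of the 19038 genes (31.5%), 3130 higher in N108 (16.4%) and 2864 lower (15.0%). Against that background 5 of 11 NF-κB and IκB family genes were higher in N108 and NFKBIA alone was lower. REL, a subunit gene, was at 10.3, 9.59 and 10.1 CPM in N108 and 7.60, 8.16 and 7.05 CPM in M3, a log2 fold change of 0.39 ± 0.08. NFKBIB, which encodes IκBβ, was higher by 0.29 ± 0.06 on the log2 scale, and NFKB1, which encodes p50 and its precursor, by 0.15 ± 0.04. RELA and NFKB2 were not called, at log2 fold changes of -0.04 ± 0.05 and -0.01 ± 0.05, and their groups overlapped. RELB was called at 0.24 ± 0.09 with an adjusted p just under the threshold and with overlapping groups, a call lost in 8 of the 16 other settings tried, while that of NFKB1 was lost without M3 replicate 1 (adjusted p 0.0677).

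Early NF-κB target genes did not move as 1 group at rest. Of 37 measured, 11 were higher in N108 and 4 lower, beside 16.4% and 15.0% over all genes. Their median log2 fold change was 0.14 against 0.003 over all genes tested. Without N108 replicate 3 the number higher was 7. TNFAIP3, which encodes the feedback inhibitor A20, was at 10.0, 9.21 and 9.29 CPM in N108 and 7.17, 7.36 and 8.22 CPM in M3, a log2 fold change of 0.33 ± 0.07. CSF1, a macrophage growth factor, was higher by 0.58 ± 0.11. PLAU, the urokinase protease, was lower, at 46.1, 43.1 and 44.5 CPM in N108 and 88.0, 87.0 and 94.8 CPM in M3, and IER3, an early response gene, was lower with a log2 fold change of -0.29 ± 0.05.

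Most differences were small, and a minority were large. Among the called genes the median absolute log2 fold change was 0.32. At 2-fold or more 679 genes were called (3.57%), 411 higher (2.16%) and 268 lower in N108 (1.41%). Against a threshold of 1.5-fold built into the test (glmTreat) 485 genes remained, 317 higher and 168 lower. The 3 N108 and 3 M3 libraries did not overlap in 8308 genes (43.6%), 5770 of them called. Long noncoding genes reached 2-fold more often than protein-coding ones, in 5.71% of 2927 against 3.20% of 13907, a difference that was not tested.

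**Figure D1:**
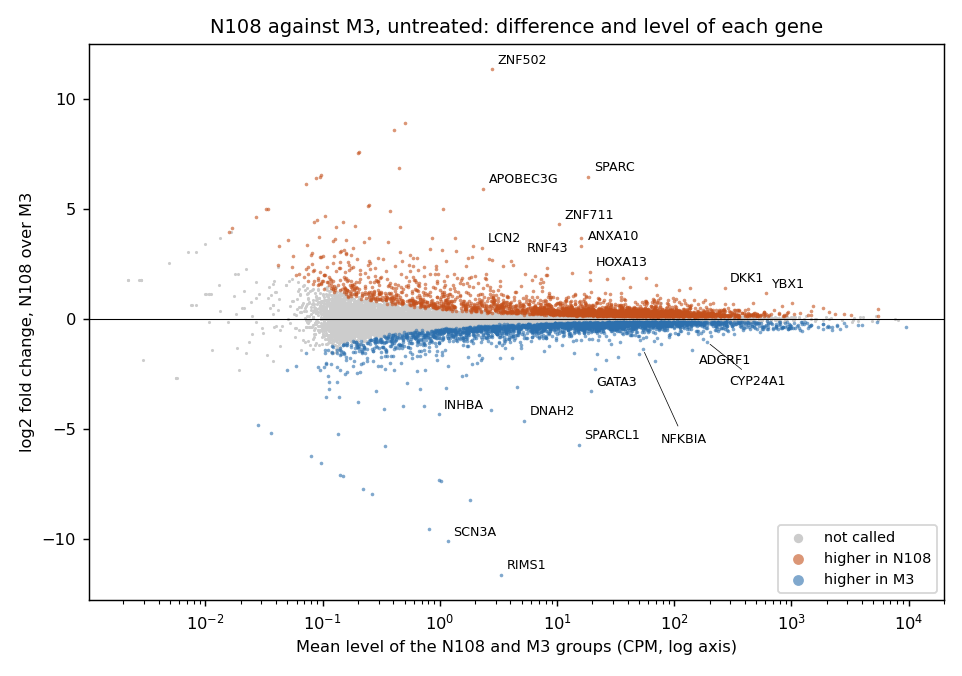
Log2 fold change of N108 over M3 for each gene tested (y axis) against the mean CPM of the groups (x axis, log). Called genes are coloured by the line with the higher level. Differences beyond a log2 value of 5 sat mostly under 10 CPM, while YBX1 and DKK1 were far from 0 at high levels.

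The genes furthest above M3 included secreted, immune and epithelial genes. SPARC, a matricellular glycoprotein, was at 36.2, 34.0 and 39.5 CPM in N108 and 0.398, 0.358 and 0.473 CPM in M3, which is 89.0-fold higher in N108 (adjusted p 2.59e-26). APOBEC3G, a cytidine deaminase that restricts retroviruses, was at 4.83, 4.33 and 4.69 CPM against 0.104, 0.0488 and 0.0701 CPM. The WT libraries held both at higher levels still, 56.8 to 57.6 CPM for SPARC and 48.2 to 52.4 CPM for APOBEC3G.

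Transcripts of 2 zinc finger genes differed sharply. ZNF502 was at 5.45, 6.11 and 5.04 CPM in N108, while no read of it was counted in any untreated M3 library (1102 against 0 counts). With a floor of 3 counts over the group ZNF502 was at least 328-fold higher in N108, and WT held 3.99 to 4.46 CPM. ZNF711, an X-linked gene whose protein binds promoters, was at 19.3, 21.5 and 18.7 CPM in N108, 1.07, 1.07 and 0.859 CPM in M3 and 7.62 to 8.12 CPM in WT.

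Several of the leading genes have known roles in the gut or in secretion. ANXA10, an annexin typical of gastric epithelium, was at 31.0, 28.1 and 30.01 CPM in N108, 2.35, 2.26 and 2.24 CPM in M3 and 2.38 to 2.68 CPM in WT. RNF43, a ubiquitin ligase that removes Wnt receptors from the cell surface, was at 28.7, 29.6 and 28.8 CPM in N108, 2.82, 3.15 and 2.79 CPM in M3 and 4.38 to 4.82 CPM in WT. For both, M3 lay near WT and N108 well above. LCN2, which encodes the siderophore-binding protein lipocalin, was 9.52-fold higher in N108, with 4.03, 4.22 and 4.27 CPM against 0.606, 0.293 and 0.421 CPM, and WT held 26.1 to 28.1 CPM. The remaining members of the top 12 were CLGN, a chaperone, F10, coagulation factor X, CSTA, a cysteine protease inhibitor, SERPINA5, a serine protease inhibitor, and NOSTRIN, a regulator of nitric oxide synthase, at log2 fold changes of 3.17 to 5.02.

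Several of the genes furthest above N108 in M3 had no or almost no reads in N108. RIMS1, a presynaptic scaffold, was at 6.97, 6.99 and 6.17 CPM in M3 and had 0 counts in the N108 and the WT libraries. With the same floor it was at least 442-fold lower in N108. SCN3A, a voltage-gated sodium channel subunit, was at 2.37, 2.52 and 2.10 CPM in M3 and 0 in N108, at least 154-fold lower, and WT held 0.0129 to 0.0600 CPM. RGS7, a regulator of G protein signalling, CSRNP3, a nuclear protein, and B3GALT1, a galactosyltransferase, each had 2 counts over the N108 libraries against 359, 349 and 640 in M3.

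Among those with reads in both lines, SPARCL1, a relative of SPARC, ran opposite to it. SPARCL1 was at 0.537, 0.521 and 0.671 CPM in N108 and 29.6, 29.7 and 31.3 CPM in M3, 52.5-fold lower in N108, and at 0.1 to 0.129 CPM in WT. GATA3, a transcription factor of lymphoid and several epithelial lineages, was at 3.44, 3.48 and 3.98 CPM in N108, 35.0, 35.6 and 35.5 CPM in M3 and 6.32 to 6.95 CPM in WT. DNAH2, an axonemal dynein heavy chain, was at 0.352, 0.443 and 0.409 CPM against 9.76, 10.0 and 10.4 CPM. INHBA, the activin A subunit, was 20.04-fold lower in N108, EXO5, an exonuclease, 15.5-fold and DKK4, a secreted Wnt inhibitor, 8.83-fold. RPL10AP2, a pseudogene, was 17.5-fold lower, but it shares sequence with RPL10A, and how the counting divided such reads is not given.

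**Figure D2:**
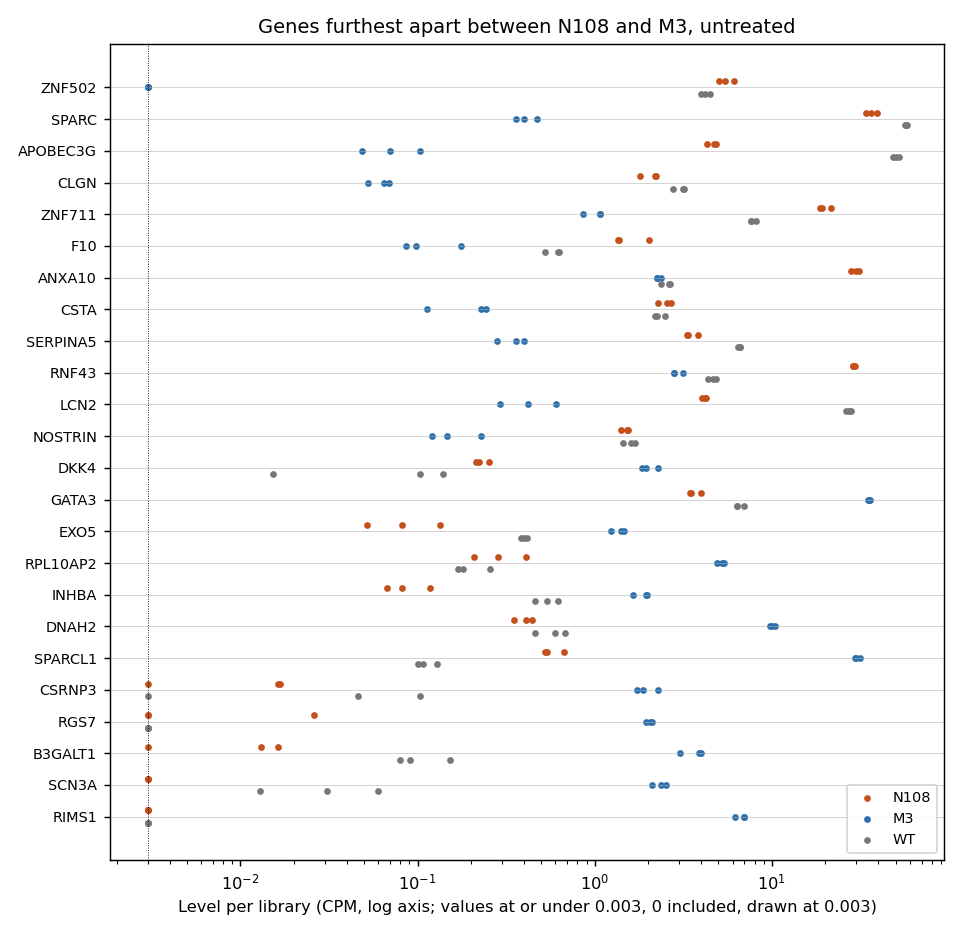
CPM in each untreated library (x axis, log) for the 12 genes furthest higher in N108 and the 12 furthest higher in M3 (rows), with 3 points each for N108, M3 and WT. Values at or under 0.003 are drawn at the dotted line. In every row the N108 and M3 points are apart, as the choice of these genes required, and the WT points lie beside N108 for some genes and beside M3 for others.

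Among genes changed by 2-fold or more, the most abundant was YBX1. YBX1 encodes an RNA-binding protein of cytoplasmic ribonucleoprotein particles, and it was at 819, 837 and 862 CPM in N108, 365, 371 and 373 CPM in M3 and 847 to 857 CPM in WT. DKK1, a secreted inhibitor of Wnt receptors, was at 389, 407 and 386 CPM against 146, 152 and 140.1 CPM. IRS1, an adaptor of the insulin receptor, and IGF2BP3, an oncofetal RNA-binding protein, were higher in N108 by 2.66-fold and 2.54-fold. CYP24A1, which inactivates vitamin D hormone, was at 131, 125 and 118 CPM in N108, 266, 260.1 and 247 CPM in M3 and 388 to 404 CPM in WT. ADGRF1, an adhesion G protein-coupled receptor, was 2.63-fold lower in N108 than in M3, and WT, at 20.8 to 22.1 CPM, lay under both.

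Of the 679 genes called at 2-fold or more, 32 lay in 10 runs of at least 3 neighbouring tested genes all called the same way. How many such runs to expect was not tested, and several members, such as PCDHGA6 and MMP20, lay under 1 CPM in both lines. On chromosome 7 HOXA3, HOXA-AS2 and HOXA4 formed a run, and HOXA13, HOTTIP, EVX1 and ENSG00000253508 formed another. HOXA13, the most posterior HOXA gene, was at 31.6, 32.6 and 30.2 CPM in N108 and 7.46, 7.54 and 6.10 CPM in M3, and WT held 18.02 to 18.8 CPM. HOTTIP, a noncoding RNA that overlaps it on the other strand, was 4.15-fold higher. Whether reads were counted by strand is unknown here, so such antisense pairs may not have been told apart. HOXA4 lost its call without N108 replicate 2 (adjusted p 0.0514) or M3 replicate 3 (adjusted p 0.0778).

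On chromosome 10 DKK1 lay between PRKG1-AS1 and LNCAROD, and LNCAROD, a noncoding RNA, was at 13.6, 14.2 and 13.4 CPM in N108 against 3.01, 2.84 and 2.47 CPM. ZNF711, POF1B and CHM formed a run on chromosome X. CHM, a Rab escort protein, was 2.01-fold higher in N108. SCN3A, SCN2A and CSRNP3 on chromosome 2 and TOX, TOX-DT and CA8 on chromosome 8 were the runs higher in M3, and SCN2A, which overlaps SCN3A on the other strand, was at 0.403, 0.625 and 0.393 CPM in N108 and 2.73, 2.86 and 3.00 CPM in M3. The remaining runs were PCDHGB1, PCDHGB2 and PCDHGA6 on chromosome 5, MMP7, MMP20 and MMP20-AS1 on chromosome 11, B3GALT5, B3GALT5-AS1 and IGSF5 on chromosome 21, and BHLHE41, SSPN, ENSG00000256894 and ENSG00000255750 on chromosome 12, all higher in N108. Protocadherin genes of this cluster share exons, and the call of PCDHGA6 was lost without N108 replicate 3, M3 replicate 2 or M3 replicate 3. That of MMP20 was lost without replicate 1 or 2 of either line and that of MMP20-AS1 without N108 replicate 2. Whole chromosomes were described over genes with a mean of at least 1 CPM in the higher line, a smaller set than all genes tested. By whole autosome or chromosome X, their median log2 fold changes lay between -0.04 (chromosome 19) and 0.08 (chromosome 18). Calls were less even. On chromosome 18, 29.74% of 195 such genes were higher and 7.69% lower. On chromosome 19, 12.12% of 982 were higher and 25.36% lower.

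Cytosolic ribosomal proteins, which build the ribosome subunits, were lower in N108 than in M3 almost throughout. Of 78 genes 77 were lower and 0 higher, where 15.0% of all genes were lower, and the median log2 fold change was -0.35. The summed level was 68699, 68691 and 72016 CPM in N108 and 85801, 84661 and 94625 CPM in M3, so the groups did not overlap and M3 replicate 3 was highest. Without M3 replicate 3 the median was -0.29. The number lower was 73 without N108 replicate 2, the lowest count of any setting other than the 1.5-fold threshold. RPL8, of the large subunit, had a log2 fold change of -0.46 ± 0.05 and RPS15A, of the small subunit, also -0.46 ± 0.05. WT means were 2181 CPM for RPL8, 261 for RPS15A, 802 for RPL10A and 485 for RPL31. In the same order N108 means were 2181, 267, 981 and 520 CPM and M3 means 2995, 368, 1388 and 723 CPM. For these genes WT thus lay at or under N108, and M3 above both. WT levels of the whole list are not given. Ribosomal protein genes have many processed pseudogenes whose reads the counting may split, and none of the differences passed the 1.5-fold threshold. Of 256 other protein-coding genes with transcripts of at most 1000 bases and at least 1 CPM, 24 were higher and 59 lower, at a median of -0.05. Across genes the log2 fold change rose with transcript length, at a Spearman correlation of 0.15. The part of length in the ribosomal difference was not tested.

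Messenger RNAs of ribosomal proteins typically begin with a C and a run of pyrimidines, the terminal oligopyrimidine (TOP) tract, through which mTOR signalling controls their translation. A tract of C followed by at least 6 C or T bases, starting within 5 bases of the RefSeq start, was found on the gene's own strand in 45 of the 62 ribosomal protein genes with an entry (72.581%) and in 7.577% of all promoters. The 30 bases around the start, 10 of them before it, are shown for 6 of the genes with the smallest p and an entry, RPS27, RPL37A, RPL27A and RPL9 among them for that reason alone, because the tract is the sequence these genes share.
RPL10A: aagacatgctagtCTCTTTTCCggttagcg
RPL31: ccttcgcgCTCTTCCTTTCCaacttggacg
RPL9: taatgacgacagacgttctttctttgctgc
RPS27: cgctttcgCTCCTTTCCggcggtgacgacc
RPL37A: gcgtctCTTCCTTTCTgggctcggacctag
RPL27A: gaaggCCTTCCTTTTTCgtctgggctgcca
Capitals mark the tract. In RPL9 none met the rule, since its C with such a run lies more than 5 bases after the start. These stretches lie at chr6:35468391-35468420 (plus strand), chr2:101002279-101002308 (plus), chr4:39458903-39458932 (minus), chr1:153990752-153990781 (plus), chr2:216498834-216498863 (plus) and chr11:8682782-8682811 (plus) of GRCh38.p14. RPL10A was at 976, 966 and 1002 CPM in N108 and 1352, 1342 and 1470.0 CPM in M3, a log2 fold change of -0.50 ± 0.05. RPL9, without a match to the rule, was at 417, 442 and 434 CPM against 572, 564 and 643 CPM. Levels of RPL31 were 495, 510.4 and 555 CPM against 710, 691 and 768 CPM.

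Genes of mitosis and G2 went the other way. Of 42 genes 35 were higher in N108 and 0 lower, where 16.4% of all genes were higher, with a median log2 fold change of 0.29. Their summed level was 4931, 5018 and 5017 CPM in N108 and 4034, 4149 and 4096 CPM in M3, without overlap. GTSE1, a microtubule-associated protein of G2, was at 53.8, 52.1 and 55.9 CPM against 37.1, 37.7 and 38.4 CPM, the largest difference of the list at 0.51 ± 0.05. BUB1, a spindle checkpoint kinase, was at 117, 120.2 and 121 CPM against 86.4, 87.0 and 83.8 CPM. ANLN, a scaffold of the cytokinetic ring, and DLGAP5, a spindle protein, were higher by 0.47 ± 0.05 and 0.46 ± 0.05. The WT level of each of these 4 genes lay above that of N108. None passed the 1.5-fold threshold.

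Many promoters of this kind carry CCAAT boxes, bound by NF-Y, and the cell cycle homology region (CHR), bound by the DREAM complex. The CHR letters TTTGAA were found on either strand within 100 bases before the start in 14 of 35 mitosis genes with an entry (40.0%), in 0 of 39 replication genes and in 4.64% of all promoters. CCAAT within 250 bases on either strand was found in 26 of the 35 (74.286%), in 22 of the 39 replication genes (56.41%) and in 33.038% of all promoters. The 100 bases before the start are shown for 5 of the mitosis genes with the smallest p and an entry, with both motifs in capitals, to show how these elements lie.
GTSE1: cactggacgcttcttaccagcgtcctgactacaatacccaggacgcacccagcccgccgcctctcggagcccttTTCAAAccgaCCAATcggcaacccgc
BUB1: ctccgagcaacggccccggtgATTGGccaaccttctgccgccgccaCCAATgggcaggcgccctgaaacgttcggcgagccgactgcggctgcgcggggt
ANLN: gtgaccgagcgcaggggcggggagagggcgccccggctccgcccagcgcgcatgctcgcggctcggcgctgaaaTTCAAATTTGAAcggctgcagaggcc
DLGAP5: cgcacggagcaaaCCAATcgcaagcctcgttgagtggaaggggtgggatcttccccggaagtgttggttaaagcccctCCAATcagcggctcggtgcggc
CCNB2: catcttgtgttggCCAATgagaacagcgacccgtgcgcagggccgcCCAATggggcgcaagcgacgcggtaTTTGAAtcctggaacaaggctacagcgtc
GTSE1 and CCNB2 hold both motifs, ANLN a pair of adjoining CHR matches, and BUB1 and DLGAP5 only CCAAT boxes. The stretches lie at chr22:46296770-46296869 (plus), chr2:110678064-110678163 (minus), chr7:36389762-36389861 (plus), chr14:55191586-55191685 (minus) and chr15:59105046-59105145 (plus) of GRCh38.p14. CCNB2, a mitotic cyclin, was at 74.2, 76.0 and 78.3 CPM in N108 and 55.6, 55.9 and 60.3 CPM in M3.

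DNA replication genes differed by less. Of 44 genes 21 were higher and 1 lower in N108, beside 16.4% and 15.0% over all genes, with a median of 0.13. The count was 11 without N108 replicate 3 and 13 without M3 replicate 1. CDC6, which loads the replicative helicase, was at 103, 106 and 109.6 CPM against 86.2, 86.0 and 87.8 CPM. RRM2, the regulated subunit of ribonucleotide reductase, was higher by 0.28 ± 0.04, CHAF1B, a histone chaperone subunit, by 0.27 and GINS2, of the replicative helicase, by 0.27 ± 0.05.

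**Figure D3:**
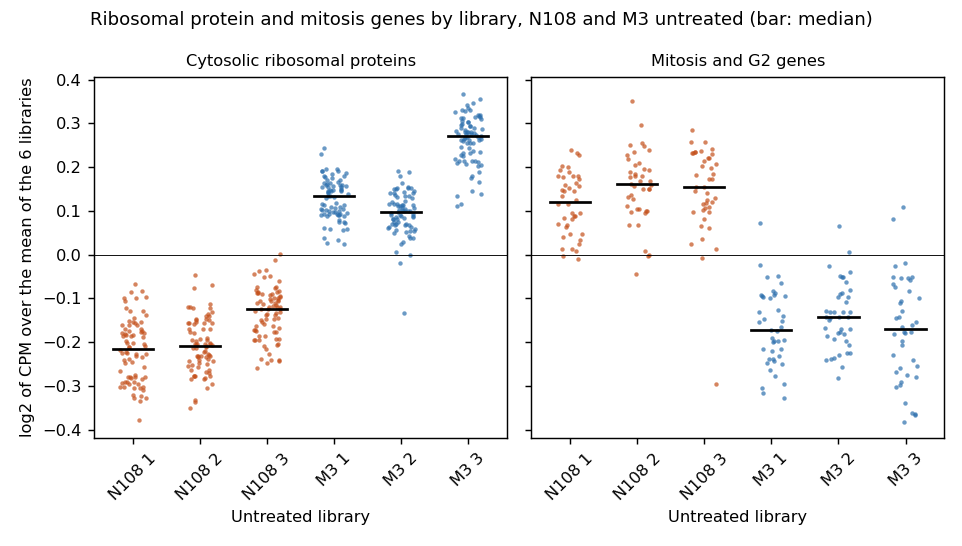
Each point is a gene of the ribosomal protein list (left) or the mitosis list (right), plotted for each untreated library (x axis) as log2 of its CPM over its mean in the 6 libraries (y axis), and bars are medians. Ribosomal protein medians lie under 0 in the 3 N108 libraries and above 0 in the 3 M3 libraries, and mitosis medians the reverse.

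Wnt feedback and target genes were more often higher than lower in N108, while over all genes 16.4% were higher and 15.0% lower. HCT116 carries a β-catenin mutation that keeps this pathway active. Of 23 genes 15 were higher and 3 lower, with a median of 0.29, counts that were the same in every setting except the 1.5-fold threshold, which left 6 higher and 1 lower. Besides RNF43, its relative ZNRF3 was at 75.7, 70.5 and 71.7 CPM in N108, 40.8, 42.4 and 39.2 CPM in M3 and 87.6 to 88.0 CPM in WT. AXIN2, the feedback scaffold of the β-catenin destruction complex, was at 18.5, 18.6 and 18.7 CPM against 9.43, 9.36 and 8.08 CPM, a 2.08-fold difference. MMP7, a secreted protease, was 2.56-fold higher at under 1 CPM, and EPHB3, a receptor that sorts crypt cells, 1.54-fold. DKK4 ran against the list, at 0.252, 0.222 and 0.213 CPM in N108 and 2.28, 1.95 and 1.86 CPM in M3.

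The TCF core letters CTTTGA, bound by the factors that recruit β-catenin, were found within 250 bases before the start on either strand in 3 of the 13 Wnt target genes with an entry (23.077%) and in 11.361% of all promoters. They share 5 letters with the CHR element. The 3 promoters with a match are shown from position -200 to -51, with matches in capitals.
SP5: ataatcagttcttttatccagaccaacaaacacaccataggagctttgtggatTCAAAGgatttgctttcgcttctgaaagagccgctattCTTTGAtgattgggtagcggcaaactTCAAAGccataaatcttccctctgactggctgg
MMP7: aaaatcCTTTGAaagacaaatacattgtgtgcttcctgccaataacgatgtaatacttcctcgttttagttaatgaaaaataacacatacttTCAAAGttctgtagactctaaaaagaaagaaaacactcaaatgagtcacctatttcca
DKK1: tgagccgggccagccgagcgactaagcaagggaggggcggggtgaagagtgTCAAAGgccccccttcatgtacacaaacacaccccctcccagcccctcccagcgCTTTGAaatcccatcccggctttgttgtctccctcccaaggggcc
They lie at chr2:170715137-170715286 (plus), chr11:102530798-102530947 (minus) and chr10:52314081-52314230 (plus) of GRCh38.p14. SP5, a transcription factor induced by Wnt and described here for its promoter, was at 5.61, 5.68 and 5.94 CPM in N108 and 2.82, 2.80 and 3.02 CPM in M3. Of 30 Wnt ligands and receptors 9 were higher and 3 lower, beside 16.4% and 15.0% over all genes. RSPO1, the ligand that draws RNF43 and ZNRF3 off the receptors, was at 1.59, 2.01 and 2.04 CPM against 0.173, 0.260 and 0.210 CPM, while WNT3 and WNT7B were higher by 0.46 ± 0.08 and 0.48 ± 0.06 and WNT2B was lower, at -0.52 ± 0.09.

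Markers of adult intestinal stem cells were mixed, while over all genes 16.4% were higher and 15.0% lower. Of 20 measured, 10 were higher and 5 lower in N108, with a median of 0.17. The number lower was 3 without N108 replicate 1, and the number higher was 7 without N108 replicate 2. RNF43, AXIN2, ZNRF3 and EPHB3, which are also Wnt targets, were the 4 furthest higher. The fetal-like and regenerative epithelial list had 15 higher and 9 lower of 32, with a median of 0.23. In it ANXA10 led, S100A10, an annexin partner, was at 55.0, 59.0 and 57.7 CPM in N108 and 16.03, 13.8 and 16.8 CPM in M3, and F3, tissue factor, was 1.99-fold higher. AREG, an EGF receptor ligand, was lower, at 123, 121 and 129.5 CPM against 196, 192 and 201 CPM. At 2-fold or more 3 members of the list were called higher and 3 lower. Those lower included IL1RN, the interleukin-1 receptor antagonist, at 3.14-fold, and SPP1, the secreted protein osteopontin, at 2.53-fold, both named after their values were seen. The lowest log2 fold change of the list was -5.17, in a gene not reported here.

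Differentiation genes of the absorptive lineage were measured in part, since 12 of 35 passed the filter. Of these 6 were higher and 1 lower in N108, beside 16.4% and 15.0% over all genes, with a median of 0.44. A mean of at least 1 CPM in the higher line was reached by 7 of the 12. DPP4, a brush border peptidase, was at 91.1, 92.3 and 89.4 CPM in N108, 26.3, 24.5 and 24.03 CPM in M3 and 27.5 to 27.7 CPM in WT. CEACAM1, an adhesion molecule, was 2.94-fold higher, KRT20, a keratin of differentiated colonocytes, 1.90-fold and CA2, a carbonic anhydrase, 1.43-fold. Unlike DPP4, CEACAM1, KRT20 and CA2 were highest in WT, with means of 22.2, 3.45 and 32.9 CPM against 3.78, 1.51 and 26.8 CPM in N108. Of 26 secretory genes 7 were higher and 2 lower. Over the whole list 7 of 26 had a mean of at least 1 CPM in the higher line. The summed level of the list ran against the count, at 88.1 to 90.1 CPM in N108 and 157.9 to 160.8 CPM in M3. MUC13, a membrane mucin, had 39 counts over the N108 libraries against 1 in M3, and EPS8L3, a brush border protein of the absorptive list, 95 against 2. SLPI, a protease inhibitor of mucus, was at 0.873, 0.808 and 0.785 CPM against 0.121, 0.146 and 0.123 CPM, and SCG2, a granin of endocrine cells, was lower, at 29.1, 28.9 and 27.9 CPM against 109, 107.5 and 111 CPM. WT means of MUC13, EPS8L3 and SLPI were 3.01, 1.44 and 18.1 CPM, above both mutants. The WT mean of SCG2, 60.8 CPM, lay between them.

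Epithelial identity genes differed in both directions, while over all genes 16.4% were higher and 15.0% lower. Among 21 transcription factors of gut identity 8 were higher and 5 lower. HNF4A, a regulator of enterocyte genes, was at 3.88, 3.83 and 3.89 CPM in N108, 1.11, 1.25 and 0.929 CPM in M3 and 0.567 to 0.768 CPM in WT. EHF, an epithelial ETS factor, was 1.63-fold higher, KLF5, a crypt factor, 1.603-fold, and OVOL2, a repressor of mesenchymal genes, 3.08-fold lower. FOXA2, an endoderm factor and the furthest lower of this list, was named after its values were seen, at 0.269, 0.222 and 0.262 CPM in N108 and 1.44, 1.30 and 1.02 CPM in M3. Keratins had 8 higher and 1 lower of 19, including KRT18 at 1019, 965 and 1016 CPM against 650.4, 645 and 699 CPM and its partner KRT8, higher by 0.30 ± 0.05. Of 35 junction and polarity genes 13 were higher and 7 lower. CDH1, E-cadherin, was at 178, 178 and 182 CPM in N108 and 138, 139 and 135 CPM in M3, and CLDN2, a pore-forming claudin, was 3.61-fold higher.

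Developmental pathways outside Wnt leaned toward N108 in most lists, while over all genes 16.4% were higher and 15.0% lower. BMP and TGF-β genes had 16 higher and 5 lower of 34, with a median of 0.27. The inhibitory SMAD genes SMAD6 and SMAD7 were higher, SMAD6 at 20.3, 18.7 and 18.8 CPM against 9.31, 8.65 and 9.48 CPM, and the ligand gene BMP4 was at 176, 159.8 and 170.1 CPM against 104, 106 and 111 CPM. INHBA ran against them. In the Notch list 9 were higher and 3 lower of 24. JAG1, a ligand, was at 89.7, 85.8 and 84.0 CPM against 47.7, 48.9 and 43.0 CPM, while DLL1, another ligand, was lower, at -0.60 ± 0.08.

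HOX genes, which mark position along the body axis, had 14 higher and 2 lower of 32, or 1 lower without N108 replicate 2 or 3 or M3 replicate 1. The number higher fell to 10 without N108 replicate 3. Besides HOXA13, the HOXB cluster held several, such as HOXB8, at 73.3, 71.8 and 72.3 CPM in N108, 44.8, 42.0 and 45.7 CPM in M3 and 129 to 140.4 CPM in WT, HOXB3 and HOXB6. Of 18 Eph receptors and ephrins 9 were higher and 1 lower, led by EPHB1 at 4.17-fold, and EFNB2, a ligand of EPHB receptors, was higher by 0.50 ± 0.05. In the YAP and TAZ list 14 of 36 were higher and 2 lower, or 10 higher without M3 replicate 3. WWC1, an upstream Hippo scaffold, was higher by 0.67 ± 0.04. Of 33 Polycomb and chromatin genes 6 were higher and 6 lower, near the 16.4% and 15.0% over all genes, with CBX7 by 0.44 ± 0.05 and EZH1 at -0.40 ± 0.05.

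**Figure D4:**
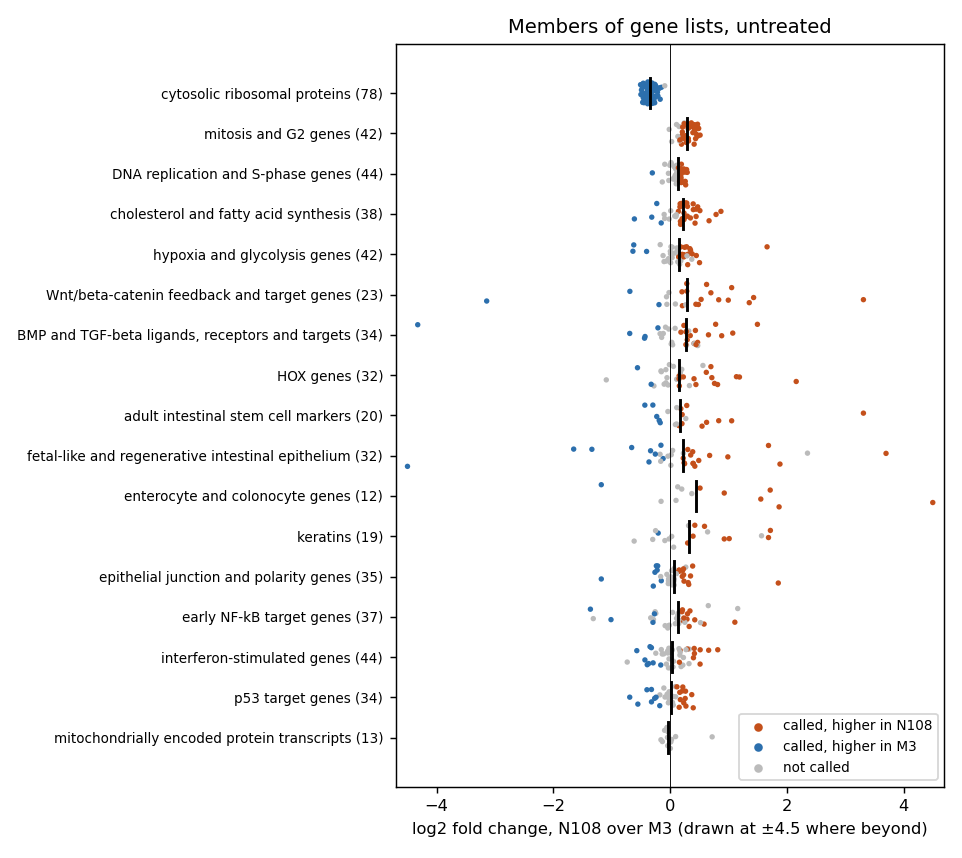
Log2 fold change of N108 over M3 (x axis) for the measured members of 17 gene lists (rows, number measured in brackets). Points are genes coloured by call and black bars are medians. Ribosomal proteins and mitosis genes form narrow bands on opposite sides of 0, and the other lists are wider and hold calls in either direction, apart from the mitochondrial transcripts, which hold none.

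Metabolic genes were also unevenly split, while over all genes 16.4% were higher and 15.0% lower. Of 38 genes of cholesterol and fatty acid synthesis 27 were higher and 4 lower in N108, with a median of 0.22. The number higher was 21 without M3 replicate 1. INSIG1, a sterol sensor partner, was 1.73-fold higher, SCD, a fatty acid desaturase, 1.42-fold, and ACSL5, an acyl-CoA synthetase, was lower, at 428, 430.4 and 424 CPM against 654, 659 and 647 CPM. Hypoxia and glycolysis genes had 16 higher and 3 lower of 42, with SLC2A3, a glucose transporter, 3.16-fold higher and LDHA, lactate dehydrogenase, higher by 0.38 ± 0.05, while CA12, a carbonic anhydrase, was lower at -0.64 ± 0.06. Of 21 iron genes 2 were higher and 6 lower, among them FTH1, ferritin heavy chain, at 1541, 1479 and 1636 CPM against 2136, 1994 and 2299 CPM.

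Stress, immune and death lists held calls in both directions. Of 34 p53 targets 12 were higher and 8 lower, with GDF15, a secreted stress signal, at -0.69 ± 0.09 and TP53I3, an oxidoreductase, at -0.55 ± 0.06. Of 44 interferon-stimulated genes 10 were higher and 8 lower, with OAS3, an antiviral sensor, at 0.41 ± 0.05 and LGALS3BP, a secreted glycoprotein, at -0.39 ± 0.05. Immediate early genes had 11 higher and 9 lower of 39. NR4A3, an orphan nuclear receptor, was at 1.53, 1.45 and 1.37 CPM in N108, 0.485, 0.374 and 0.438 CPM in M3 and 5.24 to 6.16 CPM in WT. Antigen presentation had 3 higher and 4 lower of 26, beside 16.4% and 15.0% over all genes, with HLA-DPA1, a class II chain, at 1.63 ± 0.17. The BCL2 and caspase list had 12 higher and 5 lower of 29, with BCL2, an apoptosis inhibitor, 1.601-fold higher and BIK, its antagonist, at -0.47 ± 0.07. The unfolded protein response list had 11 higher and 8 lower of 34, the heat shock list 6 and 2 of 27 and the NRF2 list 7 and 6 of 29. Over all genes 16.4% were higher and 15.0% lower, and nothing is read from these counts. Mitochondrially encoded transcripts had 0 called of 13. In 1 of them the groups did not overlap, beside 43.6% over all genes. This was MT-ND6, at an adjusted p of 0.09, which was called without N108 replicate 1 (adjusted p 0.0374).

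Genes of the matrix and of other lineages held a few large differences. Their counts of calls stand beside 16.4% higher and 15.0% lower over all genes, and nothing is read from them. In the mesenchymal list, 5 of 25 were higher and 6 lower, with SPARC and SPARCL1 at its ends and LOXL2, a lysyl oxidase, at -0.70 ± 0.10. LAMA4, a laminin chain, was at 9.40, 9.32 and 9.55 CPM in N108 and 2.89, 2.58 and 2.68 CPM in M3, in a list of integrins and laminins with 8 higher and 4 lower of 31. Proteases and their inhibitors had 9 higher and 6 lower of 27. The plasminogen activators PLAU and PLAT were both lower, PLAT at 15.7, 14.7 and 15.6 CPM against 28.2, 30.1 and 30.7 CPM, and TIMP3, a metalloprotease inhibitor, was 4.37-fold lower. Neuronal genes had 4 higher and 5 lower of 18. CNTNAP2, a neurexin relative, was at 21.6, 22.2 and 20.9 CPM against 4.83, 5.46 and 5.01 CPM, opposite to SCN3A and SCN2A.

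The same contrast in cells that had received TNF used separate libraries of the same lines. There 7107 genes were called (37.3%), 3815 higher (20.0%) and 3292 lower in N108 (17.3%). At 2-fold or more 757 were called (3.98%), 468 higher (2.46%) and 289 lower (1.52%). Both contrasts called 4188 genes, 4175 of them in the same direction, which is 69.65% of the untreated and 58.74% of the TNF calls. Of the 679 genes called at 2-fold without TNF, 514 were called in the same direction with it. Log2 fold changes correlated across the genes tested with a Pearson r of 0.80 and a Spearman rho of 0.65. The values come from cells of the same lines, and genes are not independent replicates. With TNF 61 of 78 ribosomal proteins were lower and 28 of 42 mitosis genes higher, SPARC had a log2 fold change of 6.47, SPARCL1 -5.72, RNF43 3.56 and GATA3 -3.03. With TNF the contrast followed transcript GC content, with a Spearman correlation across genes of 0.32 against -0.03 without. With the GC trend removed 7349 genes were called with TNF and 5542 in both contrasts in the same direction.

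The difference between the mutants changed with TNF in 15 genes (0.0788%) by the interaction term, 1 toward N108 (0.00525%) and 14 toward M3 (0.0735%), with 2586 at an unadjusted p under 0.05. The split by direction turned round with DESeq2, at 28 toward N108 and 19 toward M3, without a low-count filter, at 119 and 44, and without N108 TNF replicate 3, at 508 and 142. Genes at an unadjusted p under 0.05 numbered 1058 with the GC trend removed, 1545 without N108 untreated replicate 2, 1358 without N108 TNF replicate 2, 1499 without M3 untreated replicate 3 and 4506 without N108 TNF replicate 3. Of the 15 genes, 7 belong to the early NF-κB list. TNFAIP3 had the smallest p, with TNF at 151, 174 and 146 CPM in N108 and 204, 216 and 215 CPM in M3, so that N108 was above M3 at rest and under it after TNF, a change of -0.76 ± 0.09 (adjusted p 0.000119). NFKBIA reached 274, 296 and 258 CPM in N108 and 943, 985 and 970 CPM in M3, which widened its difference by -0.44 ± 0.07. MAFF, a small MAF factor, and NUAK2, a kinase, changed by -0.56 ± 0.08 and -0.87 ± 0.14. ID1, an inhibitor of differentiation factors, changed by 0.46 ± 0.07 and was the gene that moved toward N108, with 399, 402 and 366 CPM against 262, 276 and 285 CPM after TNF. Over the early NF-κB list the TNF contrast had 4 higher and 20 lower of 37, beside 20.0% and 17.3% over all genes, at a median of -0.18. The count of 15 was sensitive to single libraries. Leaving out the third TNF-treated N108 library gave 650 genes. The count fell to 7 when untreated N108 replicate 3, untreated M3 replicate 2 or TNF-treated M3 replicate 2 was dropped, and to 9 when untreated N108 replicate 1 or 2 or untreated M3 replicate 1 was dropped.

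**Figure D5:**
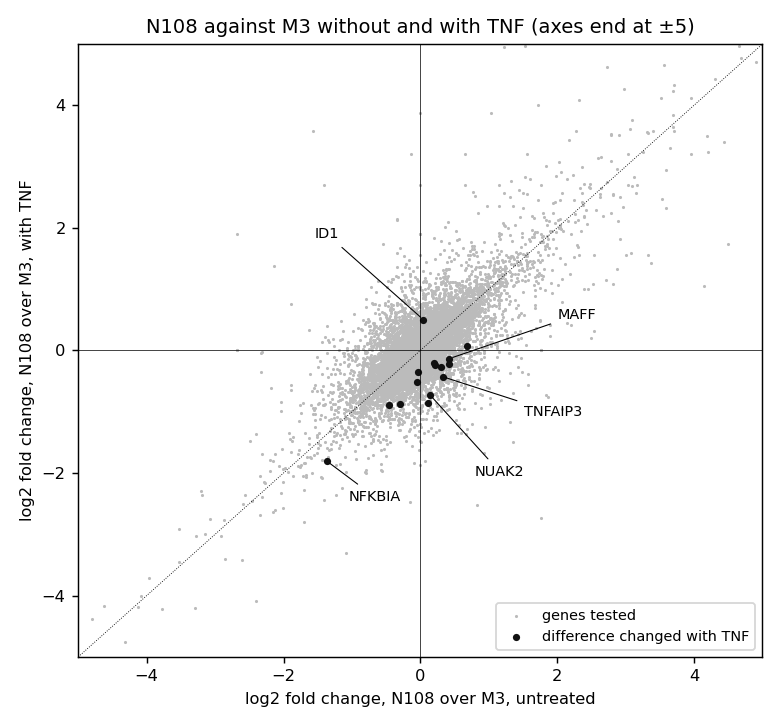
Log2 fold change of N108 over M3 in untreated cells (x axis) and in TNF-treated cells (y axis) for the genes tested, with axes ending at 5 on either side. Black points are the 15 genes whose difference changed with TNF, and the dotted line marks equal values. Most genes far from 0 lie near the line, and 14 of the black points lie under it.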

How the data were processed

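RNA of 18 libraries was sequenced as paired-end reads of 50 bp. The authors deposited raw read counts per Ensembl gene, made with Trim Galore 0.6.6, STAR 2.7.8 and featureCounts of Subread 2.0.1 on hg38, and named DESeq2 1.38.3, per the submitters' processing notes. The annotation release and strand setting are not stated there or in the labels. A deposited table on a log2 scale was read but not used, since counts could be tested.

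Testing used edgeR 4.0.16 under R 4.3.3. The filter was filterByExpr with a minimum count of 10, and the 19038 genes it passed hold 99.97% of the counts. TMM factors and a robust quasi-likelihood fit with a mean per group over 6 groups and 18 libraries (12 residual degrees of freedom) gave N108 minus M3 untreated, with TNF, and their interaction, two-sided, adjusted by Benjamini-Hochberg over all genes tested at 0.05. Standard errors come from the same test. CPM used TMM-scaled totals. Folds against 0 counts used a floor of 3 counts over the group, which covers counting error only. Alternatives were DESeq2 1.42.0, its size factors, other filters, a GC trend removed, a replicate block, the groups alone, a 1.5-fold threshold, each library left out and, chosen after seeing the data, library totals without TMM. On simulated counts of 18809 genes for the untreated contrast, 100 of 100 genes changed by 1 and 82 of 100 changed by 0.5 on the log2 scale were recovered, with 4.21% false calls. Changes were planted only in genes above a low-count limit, and no other gene changed, where 5994 were called in the data. Counts were drawn independently without the GC trend of these libraries. The rates therefore do not cover genes at low counts or such trends.

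Named genes were the 12 furthest each way among called genes that had a symbol, no overlap and a mean of 1 CPM or more in the higher line, the 6 most abundant at 2-fold, the NF-κB subunit genes, up to 4 or more members of each list by p, genes under 0.05 CPM in 1 line and at least 1 CPM in the other, runs of at least 3 neighbours, and the 4 smallest interaction p-values. Members and lists were chosen with earlier results of these data known. Symbols matched 99.75% of genes in the table. Some named genes are not reported here. Positions are from GENCODE 29 and promoters from RefSeq (GRCh38.p14).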

Additional observations from a re-analysis of the deposited data

Results flagged for a closer look

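The difference between N108 and M3 was not the same with and without TNF, by the interaction term of edgeR's quasi-likelihood test, in 5 of the genes named. It changed, as TNF minus untreated on the log2 scale, by -0.76 for TNFAIP3, -0.56 for MAFF, -0.87 for NUAK2 and -0.44 for NFKBIA, all toward M3, and by 0.46 for ID1, toward N108.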

How the results depend on the processing

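Untreated calls numbered 4913 to 7217 in every setting other than the 1.5-fold threshold, which gave 485, and 4913 to 5353 with a library left out. TNF calls ranged from 6028 to 7411 (6028 to 7222 with a library left out), and genes called in both contrasts from 3755 to 5580. The interaction, 15 genes, was 47 with DESeq2, 163 without a low-count filter, 23 with the replicate block and the GC trend removed, 7 from the 12 libraries of both mutants alone, and 7 to 650 with a library left out. The cause was not tested. Replicate numbers were not used to pair the samples in the main fit. Between N108 and M3 untreated, correlations of same-numbered deviations ran from -0.06 to 0.40 and those of differently numbered ones from -0.41 to 0.31. Over all pairs of groups same-numbered ones ran from -0.52 to 0.40. These values do not settle whether the numbers pair samples. With the replicate block the calls were 5867 untreated, 6979 with TNF and 14 for the interaction.

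Of 212 named genes 198 were called, and none reversed in any of the 16 other settings. The 1.5-fold threshold ended 109 of those calls. Other settings ended 9, those of RELB, NFKB1, MAGEA2, MAGEA3, EGFL7, HOXA4, MMP20, MMP20-AS1 and PCDHGA6, and gave 4, those of COL1A1, ACTL8, MT-ND6 and LYZ. Across scalings the median over all genes moved by under 0.01. Genes near 0 counts in 1 line rest on the other line's level only, and replicate error is estimated from 3 libraries a group.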
